A study of Mus musculus with 2 samples.

Results

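The neuronal cytoskeleton and RNA-binding genes described here are 10 named genes, Map2, Dcx, Tubb3, Dpysl2, Dpysl3, Dpysl4, Dpysl5, Elavl2, Elavl3 and Elavl4, out of 19938 genes with a value. Each was taken from the probesets that the platform annotation assigns to that gene alone, and each had 1 such probeset. The members were chosen by their gene families after the differences of Map2 and Tubb3 between the same 2 arrays were known, so the choice used measured values, and their differences between the arrays are given as a description. The cells were i-OSKM-ESC, mouse embryonic stem cells of strain 129 background, engineered from the KH2 line so that doxycycline switches on Oct4, Sox2 (carrying an epitope tag), Klf4 and c-Myc. Both cultures carried the 4 inducible factors and had been plated on gelatin-coated plastic. The first received doxycycline at 4 µg/mL and was collected 24 hours later (array labelled plus doxycycline), and the second received fresh medium without the drug (array labelled no doxycycline). Each group has 1 array, so the differences below have no replicate error and no p-value. The parental line with doxycycline was not analysed here, and the labels do not say whether i-OSKM-ESC is 1 clone.

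Microtubules are polymers of alpha- and beta-tubulin, and neurons use them to build and supply axons and dendrites. MAP2 and doublecortin (the product of Dcx) bind and stabilise microtubules, and class III beta-tubulin (the product of Tubb3) is a widely used neuronal marker. The Dpysl genes encode collapsin response mediator proteins (CRMPs), cytosolic proteins that act in growth cone guidance and in microtubule assembly. The neuronal ELAV proteins bind AU-rich and U-rich elements in transcripts and affect their splicing, stability and translation. All are usually read as genes of the neuronal lineage, although embryonic stem cells can hold low levels of some of them.

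The labels were checked first. Embryonic stem cell markers were well represented on both arrays, and 19 of 20 passed the expression filter, meaning that the higher of both log2 values was 6.48 (the table median over all probesets) or more. Pou5f1, which encodes Oct4, had 12.46 with and 12.05 without doxycycline. Klf4 (difference 0.43) and Myc (0.35) were also slightly higher in the array labelled plus doxycycline, whereas Sox2 was lower (-1.01). The labels do not say whether these probesets read the transgenes, so the induced factors do not settle the labels, and every direction below rests on them.

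In the array labelled plus doxycycline, 5 of the 8 member genes that passed this filter were higher by 2-fold or more. They were Elavl3, Dpysl5, Dpysl3, Map2 and Tubb3, with folds from 2.41 to 2.78. Over all 11191 genes passing the filter, 103 were at least 2-fold higher, which is 0.920%, and nothing is read from the members' count against that share because the genes were named with this contrast in view. None of the members, 0 of 8, was at least 2-fold lower, against 0.768% of all genes passing. The 8 genes passed the filter on each of the 2 arrays, so none passed only through its higher value. The median difference over all 10 members was 1.06 on the log2 scale, against 0.0083 over all genes. In total RNA from a culture, more cells with a transcript and more transcript per cell cannot be told apart.

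**Figure D1:**
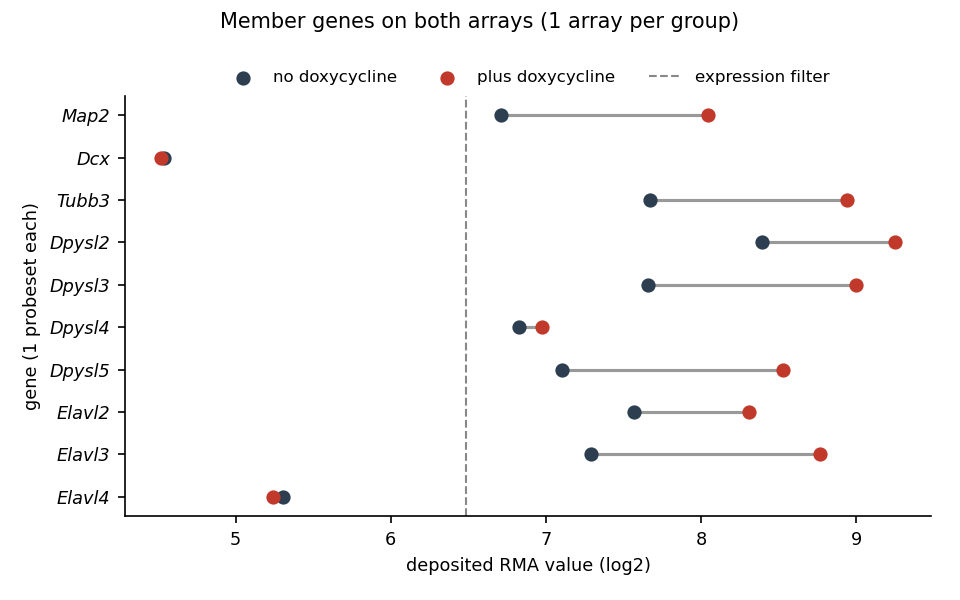
Deposited log2 RMA values of the 10 member genes (horizontal axis) on the array labelled no doxycycline (dark points) and the array labelled plus doxycycline (red points), with 1 array per group and a dashed line at the expression filter of 6.48. The pairs of 7 genes are clearly separated, Dpysl4 is nearly closed, and Dcx and Elavl4 lie left of the filter with overlapping points; values of different genes come from different probes and are not ranked.

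Among the microtubule genes, Map2 and Tubb3 were higher in the array labelled plus doxycycline and Dcx had nearly equal values. Map2, whose product is found mainly in dendrites and cell bodies of neurons, had a log2 value of 8.04 with and 6.71 without doxycycline, a 2.52-fold difference (1.33 on the log2 scale). Tubb3 had 8.94 and 7.67, a 2.41-fold difference (1.27). Dcx, a marker of migrating young neurons, had 4.52 and 4.54, a difference of -0.01. The Dcx values lay far below the expression filter on both arrays, and the table has no detection call, so a level there cannot be told from background. Of these 3 genes, Map2 and Tubb3 were read well above the filter value in the array labelled plus doxycycline, and Dcx did not reach a level at which a difference could be read.

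Of the 4 CRMP genes, 2 were at least 2-fold higher, Dpysl5 and Dpysl3. Dpysl5, which encodes CRMP5, had 8.53 with and 7.10 without doxycycline, or 2.69-fold (1.43). Dpysl3, which encodes CRMP4, had 9.00 and 7.66, or 2.53-fold (1.34). Dpysl2, which encodes CRMP2, the member best known for binding tubulin dimers, had 9.25 and 8.39, or 1.81-fold (0.85). These 3 were higher in the array labelled plus doxycycline by at least 1.5-fold. Dpysl4, which encodes CRMP3, had 6.97 and 6.83, a difference of 0.14 that was well under the others.

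Of the 3 neuronal ELAV genes, 2 passed the filter and Elavl3 was the one called. Elavl3, which encodes HuC, had 8.77 with and 7.29 without doxycycline, or 2.78-fold (1.48), the largest difference among the 10 members. Elavl2, which encodes HuB and is also expressed in germ cells, had 8.31 and 7.57, or 1.67-fold (0.74). Elavl4, which encodes HuD, had 5.24 and 5.30, a difference of -0.06 below the expression filter on both arrays. With the threshold lowered to 1.5-fold, 7 of the 8 members that passed were higher (Elavl2 and Dpysl2 joined the others), where 3.24% of all genes passing were, and 0 were lower, where 3.80% were.

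The size of these differences was set against genes of like signal. For each member the 500 genes nearest to it in mean log2 value were taken, which allows for the trend of differences with level but gives no error between cultures. Of those 500, 0 had a larger difference than Elavl3 and 0 a larger one than Dpysl5, while 2 exceeded Map2, 2 exceeded Dpysl3 and 2 exceeded Tubb3. Dpysl2 was exceeded by 9 and Elavl2 by 10. The differences of the genes around these 7 had a robust SD between 0.21 and 0.28. The members were named with these same differences in view, so the ranks describe them and support nothing. Dpysl4 was exceeded by 160 of its 500 like genes. Dcx and Elavl4 are left out of this ranking because their signals lay below the filter. Over the whole table, 29 of the 19938 genes had a larger difference than Elavl3, and 51 had a larger one than Tubb3, the smallest of the 5 called members.

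**Figure D2:**
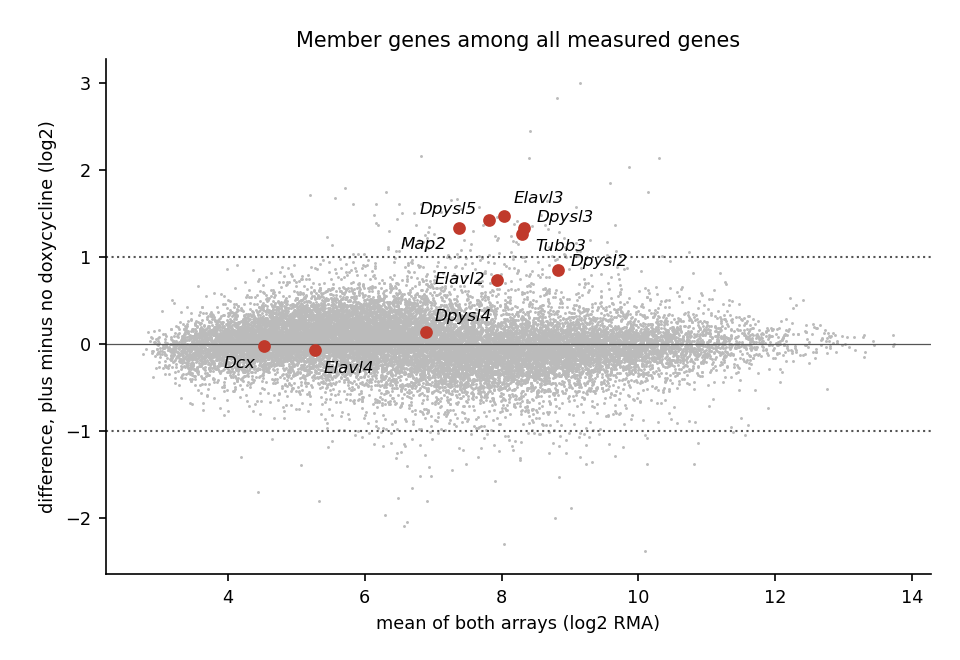
Difference of log2 values, plus minus no doxycycline (vertical axis), against the mean log2 value of both arrays (horizontal axis) for all 19938 genes (grey) and the 10 member genes (red, named), with dotted lines at 2-fold. Elavl3, Dpysl5, Dpysl3, Map2 and Tubb3 form a group above the upper line, Dpysl2 and Elavl2 lie between it and the cloud, and Dpysl4 lies inside the cloud, as do Dcx and Elavl4, whose signals were below the filter.

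Promoter sequences are shown for the higher genes that the RefSeq promoter table (build GRCm38.p6) holds, because they are among the 5 members past 2-fold, and for Dcx, whose signal lay below the filter. Of the 10 members, 7 matched the table by symbol, with 16 windows in all, some of which overlap because a gene can have several annotated starts. Dpysl2, Dpysl3 and Dpysl4 were not matched. Each line gives the 250 bases before an annotated transcript start, 5′ to 3′ on the strand of the gene, with matches to the searched motifs in capitals. The windows are chr1:66175079-66175328 (plus strand) for Map2, chr8:123411303-123411552 (plus) for Tubb3, chr9:22052024-22052273 (minus) for Elavl3, chr5:30711314-30711563 (plus) for Dpysl5 and chrX:143933220-143933469 (minus, 1 of the 2 windows of the gene) for Dcx.
Map2: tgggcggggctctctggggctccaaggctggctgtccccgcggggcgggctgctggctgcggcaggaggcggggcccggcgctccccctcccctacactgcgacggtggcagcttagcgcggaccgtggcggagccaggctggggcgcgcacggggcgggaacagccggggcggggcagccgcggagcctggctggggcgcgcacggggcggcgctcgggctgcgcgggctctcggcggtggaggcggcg
Tubb3: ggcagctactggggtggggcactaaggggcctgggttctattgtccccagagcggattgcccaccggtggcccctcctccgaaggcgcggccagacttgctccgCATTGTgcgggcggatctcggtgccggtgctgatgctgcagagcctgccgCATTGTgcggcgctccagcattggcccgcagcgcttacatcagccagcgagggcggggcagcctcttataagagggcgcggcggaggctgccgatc
Elavl3: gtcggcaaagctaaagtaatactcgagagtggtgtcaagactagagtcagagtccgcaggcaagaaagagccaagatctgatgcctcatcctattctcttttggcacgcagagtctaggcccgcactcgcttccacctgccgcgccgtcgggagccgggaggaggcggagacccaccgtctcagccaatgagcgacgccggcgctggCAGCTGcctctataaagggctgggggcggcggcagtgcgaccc
Dpysl5: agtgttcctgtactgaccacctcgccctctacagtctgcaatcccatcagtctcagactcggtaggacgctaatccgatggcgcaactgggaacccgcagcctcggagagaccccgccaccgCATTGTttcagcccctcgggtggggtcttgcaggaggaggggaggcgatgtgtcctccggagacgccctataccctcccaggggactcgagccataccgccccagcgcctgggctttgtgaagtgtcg
Dcx: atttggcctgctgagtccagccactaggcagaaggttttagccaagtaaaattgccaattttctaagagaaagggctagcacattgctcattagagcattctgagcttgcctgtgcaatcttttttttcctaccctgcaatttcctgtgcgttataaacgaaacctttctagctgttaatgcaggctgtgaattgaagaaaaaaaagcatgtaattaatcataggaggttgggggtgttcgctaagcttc

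The 4 windows of the higher genes were rich in G and C, at 81.2% for Map2, 68.0% for Tubb3, 62.8% for Dpysl5 and 61.6% for Elavl3, against a median of 52.4% over all 32851 windows of the table. Only 0.861% of all windows were at least as rich as that of Map2. Both Dcx windows were below the median (44.8% and 41.6%), and the 4 Elavl4 windows ran from 44.0% to 53.6%. The windows of Elavl2, which was not called, ran from 54.4% to 73.2%, all above the median. CpG dinucleotides, the sites of DNA methylation, had observed over expected ratios of 0.857 for Map2, 0.845 for Elavl3, 0.732 for Tubb3 and 0.693 for Dpysl5, against 0.279 in the Dcx window shown and a median of 0.373 over all windows. Elavl2, which has 6 windows, had ratios from 0.518 to 0.905, and one Elavl4 window reached 0.780. The windows behind these medians were taken from the whole promoter table, whatever the signal of their genes on these arrays. These compositions are a description and were not tested.

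Motifs were searched as exact matches on both strands in the same 250 bases. A member is named if any of its windows held a match, and some members have several windows. The shares of all windows count each window by itself, so genes named and shares are not in the same unit. The Sox motif CATTGT was found in Tubb3, Dpysl5 and Elavl4, and in 10.7% of all windows. Tubb3 held it at 146 and at 96 bases before the start, within a stretch of 13 bases that occurs at both places, ccgCATTGTgcgg, and 0.834% of all windows had at least 2 matches to CATTGT. Dpysl5 held it at 128 bases before the start. The E-box CAGCTG, of the type bound by proneural factors, was found in Elavl3, at 43 bases before the start, and in Elavl4, and in 13% of all windows. A related E-box, CATCTG, was found among the members in Elavl4 alone, and in 14.4% of all windows. No member window held the Myc-Max E-box CACGTG (6.02% of all windows), the octamer ATGCAAAT bound by Oct4 (1.6%), the Klf motif GGGTGTGG (3.2%), or the parts TTCAGCACC (0.301%) and GGACAGCG (0.992%) of the element bound by REST, the repressor of neuronal genes. The motifs do not overlap one another in these windows. These matches describe letters in the windows and are not evidence of binding. Few member windows were searched, only for exact matches in 250 bases, so a missing match is not evidence that a gene lacks a site.

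Close relatives of the members gave a mixed picture. Elavl1, which encodes the ubiquitous ELAV protein HuR, had a difference of -0.15, so within the ELAV family the positive differences were those of Elavl2 and Elavl3. Crmp1, the remaining CRMP gene, had 0.18. Among beta-tubulins other than Tubb3, Tubb1 had 0.40, Tubb4a 0.38, Tubb2a 0.16, Tubb5 0.13, Tubb2b 0.01 and Tubb6 -0.18, and Tubb4b was not analysed here. All 6 were under 1.5-fold, and Tubb3 was the one beta-tubulin called. Beta-tubulin transcripts are alike in sequence, and hybridisation between them was not tested. Map1b, an axonal microtubule-binding protein gene, was 2.27-fold higher (10.13 against 8.95), and Mapt, which encodes tau, was 1.76-fold higher (7.71 against 6.89). Map4, the broadly expressed relative of both Map2 and Mapt, had 0.18, while Map1a was 1.51-fold lower (-0.59). Of the doublecortin-like kinase genes, Dclk2 had -0.43 and Dclk1, below the filter, 0.26.

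**Figure D3:**
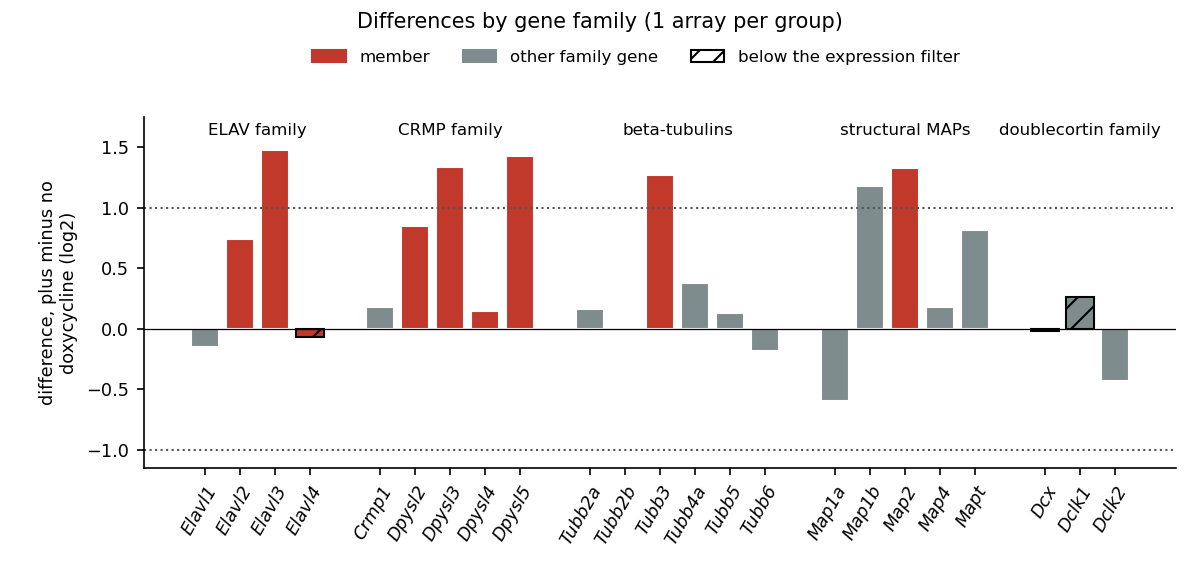
Differences of log2 values, plus minus no doxycycline (vertical axis), for member genes (red) and their relatives (grey) in 5 families, with hatching for genes below the expression filter and dotted lines at 2-fold, from 1 array per group. In the ELAV, CRMP and beta-tubulin families the bars past 2-fold are members (Elavl3, Dpysl3, Dpysl5 and Tubb3), and among the microtubule-associated protein genes Map1b passes the line beside Map2.

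The 9 lists of related genes show how far the differences reached beyond the members. Without the members, these lists held 230 measured genes, of which 157 passed the filter. Of these 157, 2 reached 2-fold upward and 2 downward, 1.27% in each direction, close to the 0.920% and 0.768% over all genes. Their median difference was 0.01.

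In the list of microtubule-associated and microtubule-regulating genes, 3 of the 30 that passed were called higher and 0 lower, and the median of the 31 measured genes was -0.0056. The 3 were Map2, Map1b and Tppp3, a gene for a tubulin polymerisation-promoting protein, which was 3.14-fold higher (9.49 against 7.84). Stmn2, which encodes a microtubule-destabilising protein of growth cones, had 12.49 and 11.96, a difference of 0.53. Stmn3, a stathmin relative, had 0.48 by the mean of its probesets and 1.17 by its brightest one, which would make 4 called. Among 17 tubulin genes (median 0.11), 15 passed and Tubb3 was the 1 called, and the next largest differences were those of Tuba8 (0.83) and Tuba3a (-0.42). The doublecortin and lissencephaly list, which covers the dynein regulators and the reelin pathway that guide neuronal migration, had 0 of 12 called and a median of 0.07 over 19 genes. Its largest difference was that of Dab1, the adaptor that transmits the reelin signal, at 0.69.

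In the list of CRMPs and their partners, 2 of 15 were called higher, both of them members (Dpysl5 and Dpysl3), and the median over 20 genes was 0.11. Fyn, a kinase that phosphorylates CRMPs, was 1.88-fold higher (9.15 against 8.24), under the threshold. In the list of ELAV and other neuronal RNA-binding genes, 1 of 26 was called, Elavl3, with a median of 0.02 over 33 genes. Nova1, a neuronal splicing factor gene, had -0.73 and Ptbp2, a splicing repressor of developing neurons, had -0.69, opposite in sign to Elavl3 and Elavl2. The intermediate filament and growth cone list had 0 of 22 called and a median of 0.04, and its largest differences were those of Marcks (-0.89), Ablim1 (0.70), Prph (-0.64) and Ina (-0.56). Prph and Ina encode neuronal intermediate filament proteins, and the neurofilament genes of the same list had 0.32 (Nefl), 0.09 (Nefh) and 0.0097 (Nefm, below the filter).

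The pan-neuronal and synaptic list had 0 of 13 called and a median of 0.11 over 33 genes. Over the 13 that passed the filter the median was 0.23, against -0.03 over all genes passing. The largest differences in the list were those of Syt1 (0.79), Celsr3 (-0.58), Gng3 (-0.51) and Kif1a (0.49). The list of neural progenitor and proneural factors had 0 of 13 called higher and 1 lower. Its median was 0.02 (44 genes measured). The lower gene was Neurod1, a proneural transcription factor gene, at 2.12-fold (7.20 against 8.28). Hes1, a Notch target that represses proneural genes, was 1.93-fold higher (8.82 against 7.87), and Sox4 (-0.58) and Insm1 (-0.43) were lower by less than 2-fold. No factor on this list was called higher on the deposited scale, although Hes1 was at 1.03 after loess centring and at 1.01 after quantile normalization, and Neurod1 was at -0.94, under 2-fold, with 32 added to each linear value.

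The REST list, with the repressor of neuronal genes and its partners, had 0 of 19 called higher and 1 lower, and 16 of its 19 differences were negative, where 55.5% of all genes passing the filter were negative. The median was -0.13. The called gene was Rcor2, a REST corepressor gene of embryonic stem cells, at 2.08-fold lower (8.32 against 9.38, difference -1.06), which became -0.99 both with 32 added to each linear value and after loess centring (removal of the trend with mean level), just under 2-fold. Rest itself had 10.12 with and 10.48 without doxycycline, a difference of -0.37. Ctdsp2, a phosphatase gene of the complex, had -0.64 and Cdyl -0.40.

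**Figure D4:**
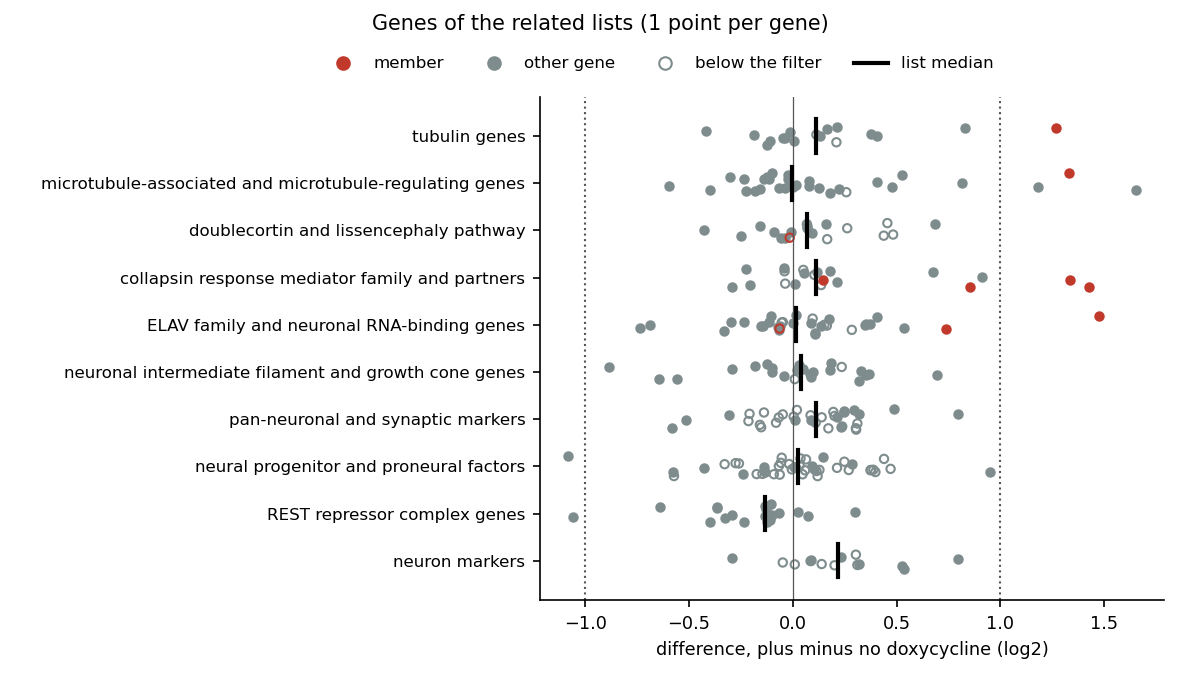
Differences of log2 values, plus minus no doxycycline (horizontal axis), for every measured gene of the 9 related lists and of the neuron markers, with members in red, genes below the expression filter as open circles, list medians as black bars and dotted lines at 2-fold, from 1 array per group. List medians lie between -0.13 and 0.22, and beyond the upper line there are 5 members and 2 other genes, Map1b and Tppp3.

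Markers of cell types that a stem cell culture could hold were measured beside the members. Of 14 neuron markers 0 were called and 7 passed the filter. Positive differences were found for 12 of the 14, where 51.6% of all genes were positive, and for 6 of the 7 that passed, where 44.4% of all genes passing were. Their differences ran from -0.29 for Gap43 to 0.79 for Syt1, with a median of 0.22. Syp, Snap25, Nefm, Slc17a6, Slc17a7, Gad1 and Gad2 were below the filter on both arrays. For all 14 neuron markers, the log2 of the summed linear values was 12.82 with and 12.37 without doxycycline. Without Stmn2, the brightest of the 14, it was 10.54 and 10.34. The median of the members was 1.06. The part of the neuron markers in the members' differences was not tested.

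Other marker lists differed in their direction. Of 15 glial markers 5 passed and 0 were called, with Olig1 lowest at -0.94 and Gjb6, below the filter, highest at 0.30. Over all 15, 9 were positive and 6 negative, with a median of 0.04. Of the 5 that passed, 4 were negative, where 55.5% of all genes passing were. They were Olig1, Olig2 (-0.78), Slc1a3 (-0.70) and Pdgfra (-0.43). Of 15 fibroblast markers 10 passed and 0 were called, with a median of 0.25 and differences from -0.33 (Fn1) to 0.52 (Fbln2), and the log2 of their summed values was 12.14 with and 12.31 without doxycycline, or 10.50 and 10.21 without Fn1, the brightest of them. The endoderm markers (14 measured) ran from -0.93 for Cubn to 0.50 for Apoa1 and the mesoderm and muscle markers (10 measured) from -0.36 for Des to 0.30 for Hand1, with 0 called in either list. Of 12 trophectoderm markers 1 was called, Krt8, at 3.36-fold higher, and Tfap2c was lowest at -0.83. Of the 20 embryonic stem cell markers, 19 passed the filter. Of these 19, 5 were at least 2-fold lower, where 0.768% of all genes passing were. They were Klf5 (-1.38), Klf2 (-1.38), Fbxo15 (-1.25), Dppa2 (-1.07) and Sox2 (-1.01). The median over all 20 was -0.46. Dppa2 was under 2-fold by its brightest probeset (-0.75), and Sox2 with 32 added to each linear value (-0.996). The part of these shifts in the members' differences was not tested.

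Genes next to Map2 and Tubb3 on their chromosomes had small differences, all under 1.5-fold. Around Map2 in the GRCm38.p6 gene order, the measured neighbours were Pth2r (-0.03), Crygf (0.08), Unc80 (0.15) and Rpe (0.02), of which Rpe passed the filter. Around Tubb3 they were Tcf25 (-0.07), Mc1r (0.07), Def8 (-0.12) and Afg3l1 (-0.26). Mc1r, the melanocortin receptor gene immediately upstream of Tubb3, was below the filter on both arrays.

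The members kept their side of the 2-fold threshold under each scaling of the arrays that was run. With 32 added to each linear value before the logarithm (the offset), which damps dim values, Elavl3 had 1.31, Dpysl5 1.24, Dpysl3 1.21, Tubb3 1.15 and Map2 1.11, so that all 5 stayed past 2-fold, where 0.590% of genes passing were at least 2-fold higher. After loess centring they lay between 1.35 (Tubb3) and 1.56 (Elavl3). Dpysl2 lay between 0.80 and 0.92 and Elavl2 between 0.65 and 0.82 over the alternatives run, under 2-fold in each. These settings change the scale of 1 pair of arrays and say nothing of how another pair of cultures would differ.

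**Figure D5:**
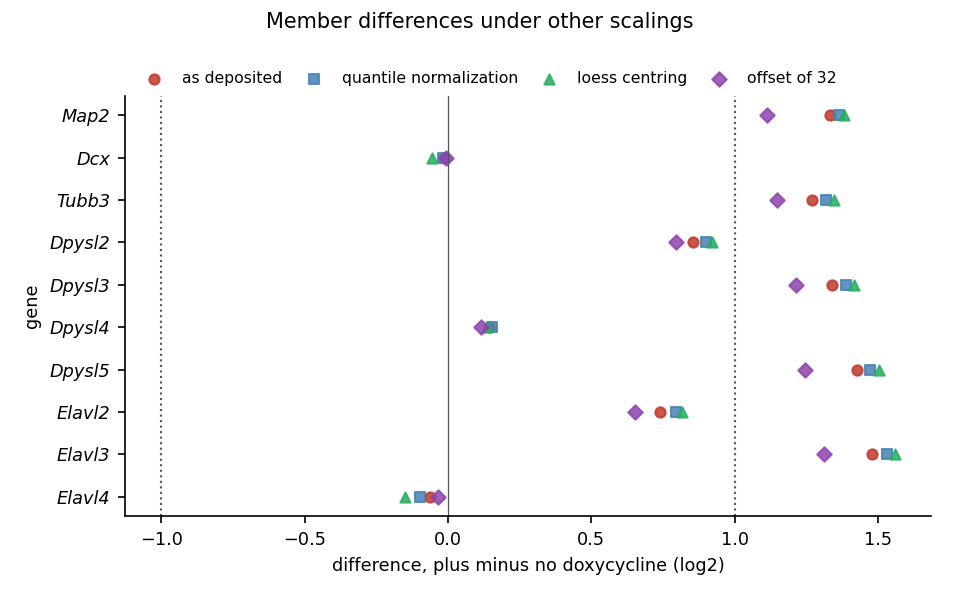
Differences of log2 values, plus minus no doxycycline (horizontal axis), of the 10 member genes as deposited (circles), after quantile normalization (squares), after loess centring (triangles) and with 32 added to each linear value (diamonds), with dotted lines at 2-fold. For Elavl3, Dpysl5, Dpysl3, Map2 and Tubb3 every symbol lies beyond 2-fold, from 1.11 to 1.56, and for the other members every symbol lies inside it.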

How the data were processed

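Total RNA of 2 cultures was measured on 1 whole-transcript oligonucleotide array each. The deposited table holds log2 values of 35556 probesets, which the authors made with Affymetrix Expression Console and RMA, per the submitters' processing notes. RMA corrects background, equalises the arrays and summarises probes, so a shift shared by most transcripts is not visible and folds of dim transcripts are compressed. The sources used here give no tool version and no genome build.

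The platform annotation assigned 21789 probesets to exactly 1 gene, 1621 to several and listed none for 12146. Probesets of 1 gene were averaged per gene, for 19938 genes. Arrays were compared by subtracting log2 values, plus minus no doxycycline. A gene passed the filter when its higher value reached the table's median (6.48), which 11191 genes did, and was called at a difference of at least 2-fold. With 1 array per group no test was possible, and the precision is limited by their number.

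The 10 members and the 9 lists, with 255 genes of which 240 were measured, and the 7 marker lists were chosen with earlier results of these data known. Named genes were the members, their closest paralogs, the induced factors and genes next to Map2 and Tubb3. From the 9 lists came every gene called and the most different genes that passed the filter, up to 4 per list. From the marker lists came every gene called and both ends of each list. Genes called outside these lists are not named. Stmn2, Stmn3, Rest, the neurofilament genes, 3 glial markers and the dim neuron markers were named after their values were seen. Alternatives were 3 other filters, quantile normalization, loess centring, an offset of 32, the brightest probeset and a 1.5-fold threshold. The filter and the 2-fold call were tested on simulated gene values with known changes, and the other steps were not. Computation used pandas 2.3.3 and NumPy 2.4.6 under Python 3.11.15, with loess from statsmodels 0.14.6 and plots from matplotlib 3.10.9.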

Additional observations from a re-analysis of the deposited data

How the results depend on the processing

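The number of members at least 2-fold higher was 5 with no filter, with a filter on the mean of both values, after quantile normalization, after loess centring, with the offset of 32 and by the brightest probeset. It was 4 with a filter at the 75th percentile of all values (8.25), which Map2 did not reach, and 7 at 1.5-fold. The number lower was 0 under each of these. The median difference of all 10 members ran from 0.95 (offset) to 1.13 (loess centring), and over members passing the 75th percentile it was 1.30. Each member has 1 probeset, so no second probeset checks any of them, and the brightest-probeset setting could not change their values. In the lists, the proneural factors had 1 gene called higher after loess centring (Hes1, 1.03) and after quantile normalization (1.01), and 0 lower with the offset. The microtubule-associated list had 4 called higher by the brightest probeset (Stmn3, 1.17, joined) against 3, and the REST list had 0 lower with the offset or after loess centring. No paired analysis was possible because each group has 1 array. Signals of Dcx and Elavl4 lay below the filter, where a difference may be hidden.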
